A study of Mus musculus with 7 samples.

Results

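C-type lectin receptors are the subject here, as 9 genes of myeloid cells: Clec4a2, Clec4d, Clec4e, Clec4n, Clec5a, Clec7a, Clec10a, Clec12a and Mgl2. They were chosen by gene symbol, with no measured value in the rule, and all 9 were found among the 23361 genes of the expression table. Macrophages, gated as lineage-negative cells carrying CD11b, CD14, CD16/32 and F4/80, came from the bridge that formed inside an inert conduit after the sciatic nerve of wild-type BALB/cJ mice was transected and repaired. PolyA+ RNA was sequenced (RNASeq) at 5, 14 and 28 days after repair, in 3, 2 and 2 libraries. No uninjured nerve was among these samples, and although the study counts its sequenced samples in mice, whether each library here came from 1 mouse was not given in the sources used here. P-values therefore measure the spread between these libraries, which may be technical. Expression is given as FPKM, fragments scaled by transcript length and by library size, which allows levels of genes of different length to be compared.

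C-type lectin receptors carry a sugar-binding type of domain and let macrophages and dendritic cells sense fungal and bacterial glycans as well as material released by dying cells. Activating members signal through an immunoreceptor tyrosine-based activation motif, their own or that of an adaptor such as the Fc receptor gamma chain or DAP12, to the kinase Syk and on to Card9 and NF-kB. Inhibitory members carry the opposite motif and recruit phosphatases, while others chiefly bind and take up glycosylated ligands.

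The libraries held between 18027190 and 35247116 fragments assigned to genes, the most in replicate 1 of day 28. Each of the 9 genes passed the filter on low counts, with Mgl2 the lowest at 36 to 432 fragments per library and Clec4e the highest at 15495 to 49980. The 2 libraries of day 14 stood apart from each other. Across 7556 genes, which are not independent replicates, log2(FPKM + 1) correlated at 0.9715 between them, against 0.9906 to 0.9914 among the day 5 libraries and 0.981 between those of day 28. Replicate 1 of day 14 was nearer to the day 5 libraries (0.9749 to 0.9786) than to those of day 28 (0.9527 and 0.9667), and replicate 2 was nearer to the day 28 libraries (0.9737 and 0.9811) than to those of day 5 (0.9447 to 0.9555).

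The label of the cells was checked against marker genes. All 14 macrophage markers were detected, with a summed level of 17274 to 23124 FPKM per library. Lyz2, the gene of lysozyme, was the most abundant (mean 13666 FPKM) and made up most of the sum in each library. Of the 5 genes of the proteins used for sorting, 2 were called as lower at day 28 than at day 5. Cd14 went from 2766 ± 206 FPKM (SD, n = 3) at day 5 to 1634 ± 286 (SD, n = 2) at day 14 and 1616 ± 259 (SD, n = 2) at day 28, and Emr1, which encodes F4/80, from 410 ± 54.2 to 297 ± 67.4 and 202 ± 9.46 FPKM. These were the 2 called (edgeR quasi-likelihood, Benjamini-Hochberg adjusted p = 0.0145 for Cd14 and 0.0065 for Emr1). The other 3, named after their values were seen, were not: the log2 fold change between days 5 and 28 was -0.45 for Itgam (CD11b), and -0.30 and 0.12 for Fcgr2b and Fcgr3 (CD16/32), with edgeR adjusted p of 0.105, 0.132 and 0.481.

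In each library the pair Clec4e and Clec4d led the family. Clec4e encodes Mincle, which senses a nuclear protein released by dying cells and mycobacterial glycolipids, and Clec4d encodes MCL, its partner at the cell surface. The 9 genes summed to 1339 ± 173 FPKM (SD, n = 3) at day 5, 1139 ± 103 (SD, n = 2) at day 14 and 1369 ± 284 (SD, n = 2) at day 28, and the libraries of the 3 time points overlapped. The make-up of the sum differed more. Clec4d and Clec4e together took 75.7%, 71.7% and 69.6% of it in the day 5 libraries, 54.2% and 52.2% at day 14, and 55.4% and 55% at day 28. Every library of days 14 and 28 was thus below every library of day 5. The share also depends on the levels of the other genes. Mean FPKM at days 5 and 28 was 49.9 and 220 for Clec7a and 87.1 and 159 for Clec4n. For Clec4d it was 416 and 286, and for Clec4e 556 and 470. In bulk RNA, fewer cells that express a gene and less RNA per cell cannot be told apart, here or for the genes below.

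**Figure D1:**
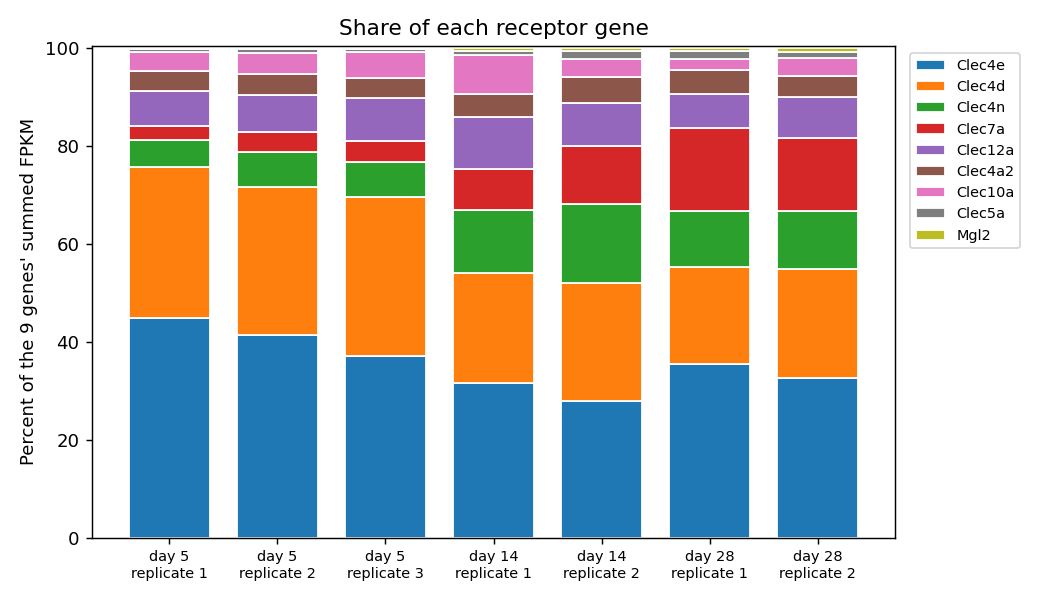
Share of each receptor gene in the summed FPKM of the 9 genes (percent, vertical axis) in each library (horizontal axis, by day and replicate). Clec4e and Clec4d took 69.6% to 75.7% of the sum at day 5 and 52.2% to 55.4% later, while Clec7a went from 2.93% to 4.24% at day 5 to 14.9% and 16.9% at day 28.

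By level per length, Clec4e ranked first and Clec4d second among the 9 genes in all 7 libraries, Clec5a eighth and Mgl2 last. The middle of the order shifted. Clec7a ranked sixth or seventh in the day 5 libraries and at position 3 in both day 28 libraries, whereas Clec12a went from rank 3 to rank 5. Neighbours in this order were often not separated by more than their spread: at day 5, Clec10a (60.8 ± 1.11 FPKM), Clec4a2 (54.8 ± 7.33) and Clec7a (49.9 ± 6.39; each SD, n = 3) lay close together.

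**Figure D2:**
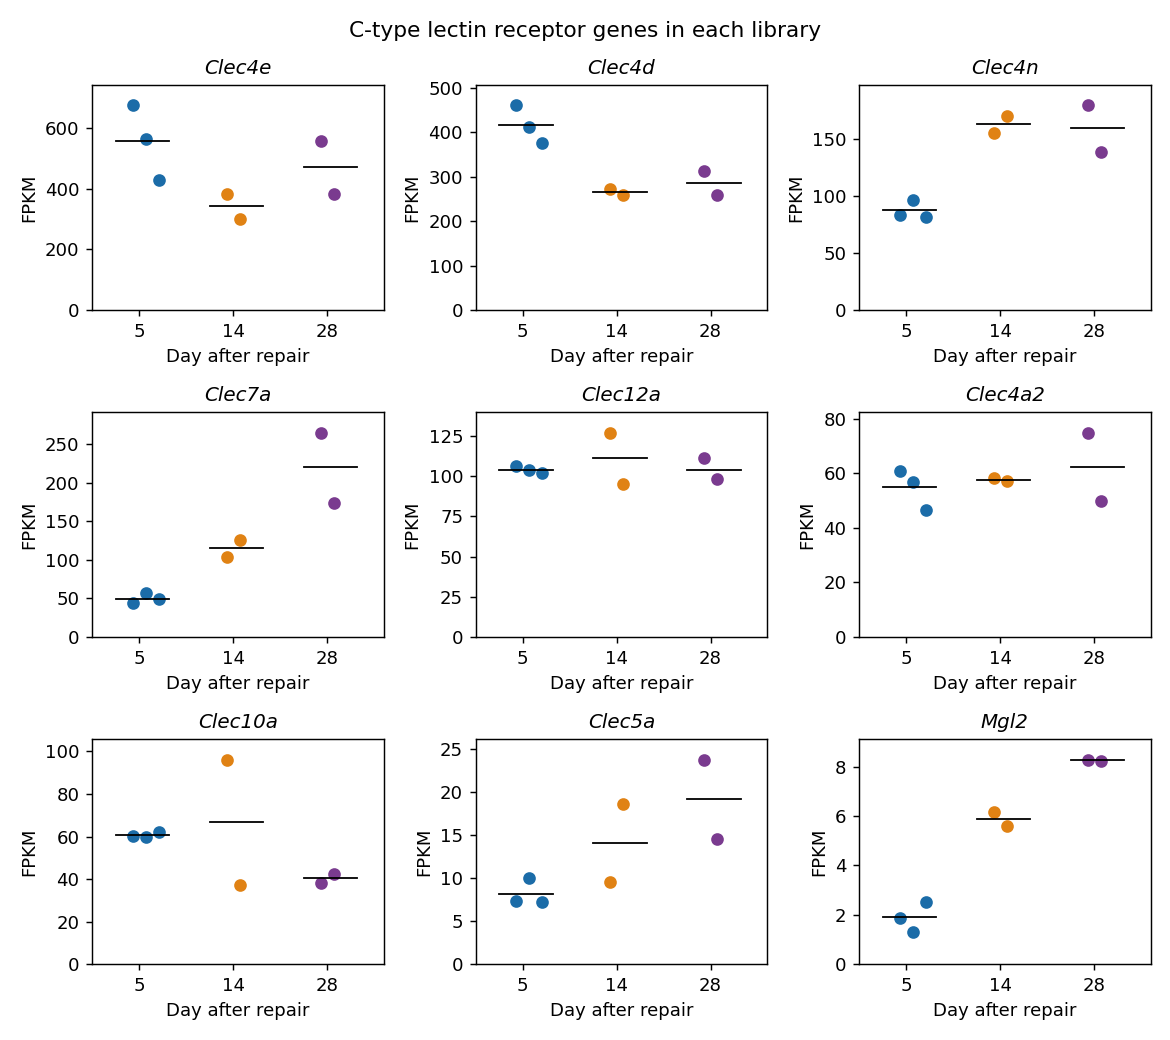
FPKM of each receptor gene (vertical axis, from 0, a scale of its own for each gene) in each library by day after repair (horizontal axis). Points are single libraries and lines are group means. Clec7a and Mgl2 lie higher at each later time point with no overlap between libraries, and Clec4d is higher in the 3 day 5 libraries than in the other 4.

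The first comparison asked how expression differed between the early and the middle phase of the response, days 5 and 14. Of the 9 genes, 3 were higher at day 14 (Clec4n, Clec7a and Mgl2) and 1 was lower (Clec4d) at an adjusted p under 0.05. Over all 12858 genes tested, 4.78% were called, 2.84% as higher and 1.94% as lower. The median log2 fold change was 0.14 over the 9 genes and 0.03 over all genes tested. The count moved with single libraries: it was 0 without replicate 1 of day 5, 1 (Mgl2) without replicate 3 of day 5 and 7 without replicate 1 of day 14, where 63, 52 and 1728 of all genes were called. Without replicate 1 of day 5 the edgeR log2 fold changes of Clec4n, Clec7a and Mgl2 were 0.88, 1.13 and 1.63, against 0.91, 1.22 and 1.64 with all libraries, and without replicate 3 those of Clec4n and Clec7a were 0.88 and 1.21.

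The second comparison, day 28 with day 14, called none of the 9 genes with edgeR, against 0.0622% of all genes (8 of 12858). At an unadjusted p under 0.05 there was 1, Clec7a, against 1570 of all 12858 genes. DESeq2 also called Clec7a at its adjusted threshold, and limma did not. Without replicate 2 of day 14 edgeR called 2 of them, Clec7a and Clec10a (629 of all genes). The last comparison, day 28 with day 5, spans the whole course and shares the day 5 libraries with the first. Here 4 genes were higher (Clec4n, Clec5a, Clec7a and Mgl2) and 1 lower (Clec4d), while 15.2% of all genes tested were called, 7.74% as higher and 7.51% as lower. The median log2 fold change was 0.20 over the 9 genes and 0.03 over all. This count was 3 (Clec4n, Clec7a and Mgl2) without replicate 1 or replicate 3 of day 5 or without replicate 1 of day 28, where the share of all genes called was also lower, at 6.42%, 7.57% and 3.4%.

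**Figure D3:**
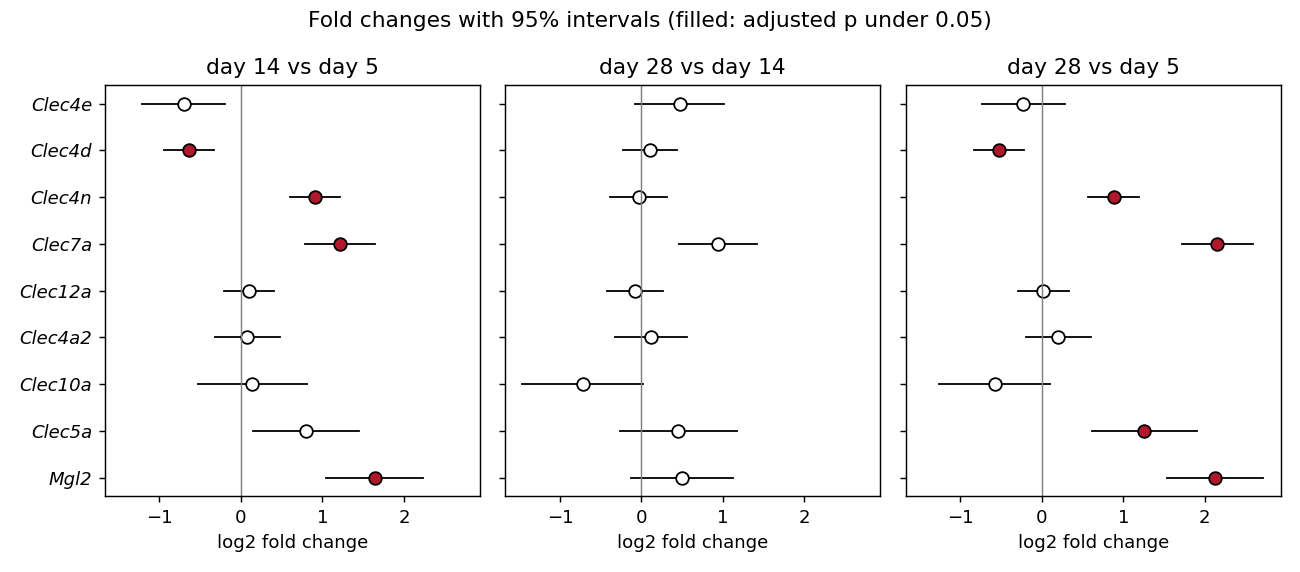
Log2 fold change of each receptor gene (horizontal axis) in the 3 comparisons, from edgeR. Lines are 95% intervals and filled points have an adjusted p under 0.05. Clec4n, Clec7a and Mgl2 lie to the right of 0 and Clec4d to the left in both comparisons with day 5, and no point is filled between days 14 and 28.

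RefSeq's promoter table (GRCm38.p6) held 7 of the 9 genes. The 250 bases before the start are shown for the called genes it held, since Clec5a, Clec7a and Mgl2 were higher and Clec4d lower at day 28. Capitals mark letters found on either strand: GAGGAA (PU.1), TGANTCA (AP-1), TTC and GAA with 4 bases between them (STAT6), TTGCNNAA (C/EBP), and GGGA and TCC with 3 bases between them (NF-kB).
Clec7a, chr6:129472786-129473035, minus strand: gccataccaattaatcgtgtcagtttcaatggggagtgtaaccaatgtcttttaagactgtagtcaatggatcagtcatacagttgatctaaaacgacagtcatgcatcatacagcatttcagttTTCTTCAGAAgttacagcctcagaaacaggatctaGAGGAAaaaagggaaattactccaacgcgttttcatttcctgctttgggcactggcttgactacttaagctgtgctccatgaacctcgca
Clec5a, chr6:40585806-40586055, minus strand: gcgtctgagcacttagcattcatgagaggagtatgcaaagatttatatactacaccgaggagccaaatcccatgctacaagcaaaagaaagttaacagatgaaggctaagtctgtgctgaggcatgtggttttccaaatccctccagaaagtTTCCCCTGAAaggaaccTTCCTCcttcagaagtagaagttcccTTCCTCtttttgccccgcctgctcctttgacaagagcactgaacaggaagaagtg
Mgl2, chr11:70130107-70130356, plus strand: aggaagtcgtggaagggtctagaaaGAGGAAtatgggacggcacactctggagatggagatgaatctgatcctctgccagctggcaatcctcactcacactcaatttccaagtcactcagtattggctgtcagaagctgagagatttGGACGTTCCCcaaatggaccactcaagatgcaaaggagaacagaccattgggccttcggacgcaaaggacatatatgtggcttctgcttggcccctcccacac
Clec4d, chr6:123261857-123262106, plus strand: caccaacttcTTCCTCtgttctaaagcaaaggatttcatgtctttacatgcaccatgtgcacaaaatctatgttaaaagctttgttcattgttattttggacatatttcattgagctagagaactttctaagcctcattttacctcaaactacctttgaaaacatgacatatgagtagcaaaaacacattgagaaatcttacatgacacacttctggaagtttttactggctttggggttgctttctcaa

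PU.1 letters were in 6 of the 7 promoters, all but that of Clec4a2, and in 23.3% of the 32851 promoters of the table. STAT6 letters were in those of Clec5a and Clec7a, against 5.85% of all promoters, NF-kB letters in that of Mgl2 (3.86%), AP-1 letters in that of Clec12a (6.75%) and C/EBP letters in those of Clec4e and Clec12a (9.56%). A match is a stretch of letters and was not tested as a binding site. The windows of Clec4a2 (chr6:123122440-123122689) and Clec12a (chr6:129349994-129350243) precede the RefSeq start but lie inside the GENCODE spans of these genes given below.

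Among the activating receptors, Clec7a changed most. It encodes Dectin-1, which binds beta-glucans and carries its own activating motif. Its level was 43.9, 56.6 and 49 FPKM in the day 5 libraries, 104 and 126 at day 14, and 265 and 174 at day 28. No library overlapped with those of another time point, although the 2 day 28 libraries differed more from each other than those of any other day. The log2 fold change was 1.22 between days 5 and 14 (SE 0.19, edgeR adjusted p = 0.0179) and 2.15 between days 5 and 28 (SE 0.19, adjusted p = 0.000641), a ratio of 4.45. Between days 14 and 28 it was 0.94 (SE 0.21, 95% interval 0.46 to 1.42, edgeR adjusted p = 0.123).

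Clec4n encodes Dectin-2, which binds mannose-rich glycans and signals through the Fc receptor gamma chain. Its FPKM was 83.5, 96 and 81.6 at day 5, 155 and 170 at day 14, and 179 and 138 at day 28. All 4 later libraries were above all 3 early ones, and the libraries of days 14 and 28 overlapped. The log2 fold change from day 5 was 0.91 at day 14 (SE 0.14, edgeR adjusted p = 0.016) and 0.88 at day 28 (SE 0.14, edgeR adjusted p = 0.0049). Between days 14 and 28 the fold change was -0.03 (95% interval -0.38 to 0.32).

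Clec4d lies next to Clec4n on the chromosome, followed by Clec4e. Clec4d measured 461, 412 and 376 FPKM at day 5, 273 and 258 at day 14, and 312 and 260 at day 28. The day 5 libraries were the 3 highest. The log2 fold change was -0.64 between days 5 and 14 (SE 0.14, edgeR adjusted p = 0.0366) and -0.53 between days 5 and 28 (SE 0.14, edgeR adjusted p = 0.0321). Both calls were lost when certain libraries were left out: the first without any 1 of the day 5 libraries (-0.56, -0.65 and -0.70) or replicate 2 of day 14 (-0.60), and the second without any 1 library of day 5 (-0.45, -0.54 and -0.59) or day 28 (-0.67 and -0.41). Each was kept without any 1 of the other libraries. The first was also lost with limma on log2(FPKM + 1) (-0.64, limma adjusted p = 0.0503). With the replicate number as a block it was lost at -0.70, and at -0.71 with the day 28 numbers swapped. The second was lost in the block (-0.60) and kept with the numbers swapped.

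Clec4e gave 674, 564 and 428 FPKM at day 5, 383 and 298 at day 14, and 558 and 382 at day 28. Its day 14 libraries were below those of day 5, but those of day 28 fell within or below the day 5 range and the spread was wide at both times. With a log2 fold change of -0.70 (SE 0.23, edgeR adjusted p = 0.105) between days 5 and 14 and -0.23 (SE 0.22, adjusted p = 0.528) between days 5 and 28, it did not pass the edgeR test in either comparison. The former difference was called by DESeq2 (-0.71, adjusted p = 0.0137), by edgeR with no filter (-0.70, adjusted p = 0.0134) and by edgeR without replicate 1 of day 14 (-0.88, adjusted p = 0.0428), and its adjusted p was 0.0747 to 0.353 in the other alternatives. The ratio of Clec4e to Clec4d ranged from 1.14 to 1.46 at day 5, was 1.4 and 1.15 at day 14, and 1.79 and 1.47 at day 28.

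Clec5a encodes MDL-1, which pairs with the adaptors DAP12 and DAP10. The libraries gave 7.32, 9.98 and 7.21 FPKM at day 5, 9.56 and 18.6 at day 14, and 23.8 and 14.6 at day 28. Replicate 1 of day 14 lay within the day 5 range and replicate 2 within the day 28 range, while days 5 and 28 did not overlap. The gene was higher at day 28 than at day 5 by 1.25 on the log2 scale (SE 0.29, edgeR adjusted p = 0.0207), and the difference of 0.80 between days 5 and 14 did not pass the test (SE 0.29, edgeR adjusted p = 0.134). The call at day 28 was lost without replicate 1 (1.18) or replicate 3 of day 5 (1.17) and without replicate 1 of day 28 (0.85). The difference at day 14 was 1.20 and called without replicate 1 of that day, and 0.24 and not called without replicate 2. It was also called by DESeq2 (0.78, adjusted p = 0.0449) and by edgeR with no filter (0.80, adjusted p = 0.0159), with an adjusted p of 0.0618 to 0.713 in the alternatives that did not call it.

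The receptors for galactose and N-acetylgalactosamine, Clec10a (MGL1) and Mgl2, differed from each other. Mgl2 was at 1.89, 1.3 and 2.5 FPKM at day 5, 6.18 and 5.58 at day 14, and 8.28 and 8.24 at day 28. The 3 time points did not overlap, at a level that remained the lowest of the 9 genes. Its log2 fold change was 1.64 between days 5 and 14 (SE 0.27, edgeR adjusted p = 0.0184), 2.13 between days 5 and 28 (SE 0.26, edgeR adjusted p = 0.00191) and 0.50 between days 14 and 28 (95% interval -0.13 to 1.13).

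Clec10a, by contrast, was at 60.3, 60 and 62.1 FPKM at day 5, 96.1 and 37.4 at day 14, and 38.1 and 42.6 at day 28. The day 14 libraries lay on either side of all others, replicate 1 above every day 5 library and replicate 2 below every day 28 library. The fold change between days 5 and 14 was 0.14 on the log2 scale (SE 0.30, edgeR adjusted p = 0.814). Without replicate 1 of day 14 it was -0.69 (edgeR adjusted p = 0.00994), and without replicate 2 it was 0.67 (edgeR adjusted p = 0.0264), so each library alone gave a call in the opposite direction. Between days 14 and 28 the fold change was -0.72 (edgeR adjusted p = 0.419), with 0.11 and -1.25 when the same libraries were left out, the latter called. Day 28 was below day 5 in each library, with a log2 fold change of -0.58 that did not pass the test (SE 0.30, edgeR adjusted p = 0.223) but did at -0.58 without either day 14 library, and in the fit of those 2 time points alone. The ratio of Clec10a to Mgl2 was 24.8 to 46.3 at day 5, 15.5 and 6.7 at day 14, and 4.59 and 5.17 at day 28. These 2 genes share sequence: 148 of 2255 windows of 75 bases in Mgl2 transcripts (6.56%) and 4.44% of those of Clec10a occur in a transcript of the other, so the assignment of some reads is uncertain, more so for the less abundant Mgl2.

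The inhibitory receptors varied least. Clec12a, which encodes a receptor for uric acid crystals, was at 106, 104 and 102 FPKM at day 5, 127 and 94.9 at day 14, and 111 and 98.2 at day 28. Clec4a2, which encodes the dendritic cell immunoreceptor DCIR, was at 60.9, 56.9 and 46.7, then 58.3 and 57, then 74.9 and 49.8 FPKM. The time points overlapped for both genes. Between days 5 and 28 the log2 fold change was 0.02 for Clec12a (95% interval -0.29 to 0.33) and 0.20 for Clec4a2 (95% interval -0.20 to 0.60). Of the Clec4a2 windows of 75 bases, 3.24% also occur in Clec4a4 or Clec4b1.

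Of the 9 genes, 7 lie on chromosome 6 and 2 on chromosome 11 (GENCODE, GRCm38, the build also called mm10). This annotation lists Clec7a as a polymorphic pseudogene and the others as protein-coding. Clec4a2 (chromosome 6, 123106428 to 123143999), Clec4n (123229843 to 123247021) and Clec4d (123262111 to 123275265) are on the plus strand, and Clec4e (123281789 to 123289870) on the minus strand. Only 15.1 kb separate Clec4n from Clec4d and 6.52 kb Clec4d from Clec4e, yet Clec4n and Clec4d were called in opposite directions. Clec12a (129342691 to 129365303, plus strand) and Clec7a (129461591 to 129472779, minus strand) lie 96.3 kb apart, and Clec5a (40574894 to 40585821, minus strand) lies alone. Mgl2 (chromosome 11, 70130329 to 70137550) is 18.6 kb from Clec10a (70156197 to 70170834), both on the plus strand.

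Besides the 9 genes, the table holds 31 protein-coding genes within 100 kb of them, of which 15 were tested. Of these 15, 1 was called, Gabarapl1, as higher at day 28 than at day 5 (log2 fold change 0.78, SE 0.13, edgeR adjusted p = 0.00597). In that comparison 15.2% of all genes tested were called and 7.74% were higher. Olr1, the oxidised LDL receptor gene 12.5 kb from Clec7a, was at 46.3, 56.2 and 41.2 FPKM at day 5, 39.2 and 29.7 at day 14, and 80.5 and 61.7 at day 28. Its lowest values were at day 14, unlike those of Clec7a. The day 28 to day 5 fold change was 0.59 (SE 0.18, edgeR adjusted p = 0.0558). RefSeq places a long noncoding RNA, Gm45969, across Clec7a, and a pseudogene, Gm12311, across part of Mgl2. Whether the authors' counting used strand was not given in the sources used here, and reads shared with these could not be told apart.

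**Figure D4:**
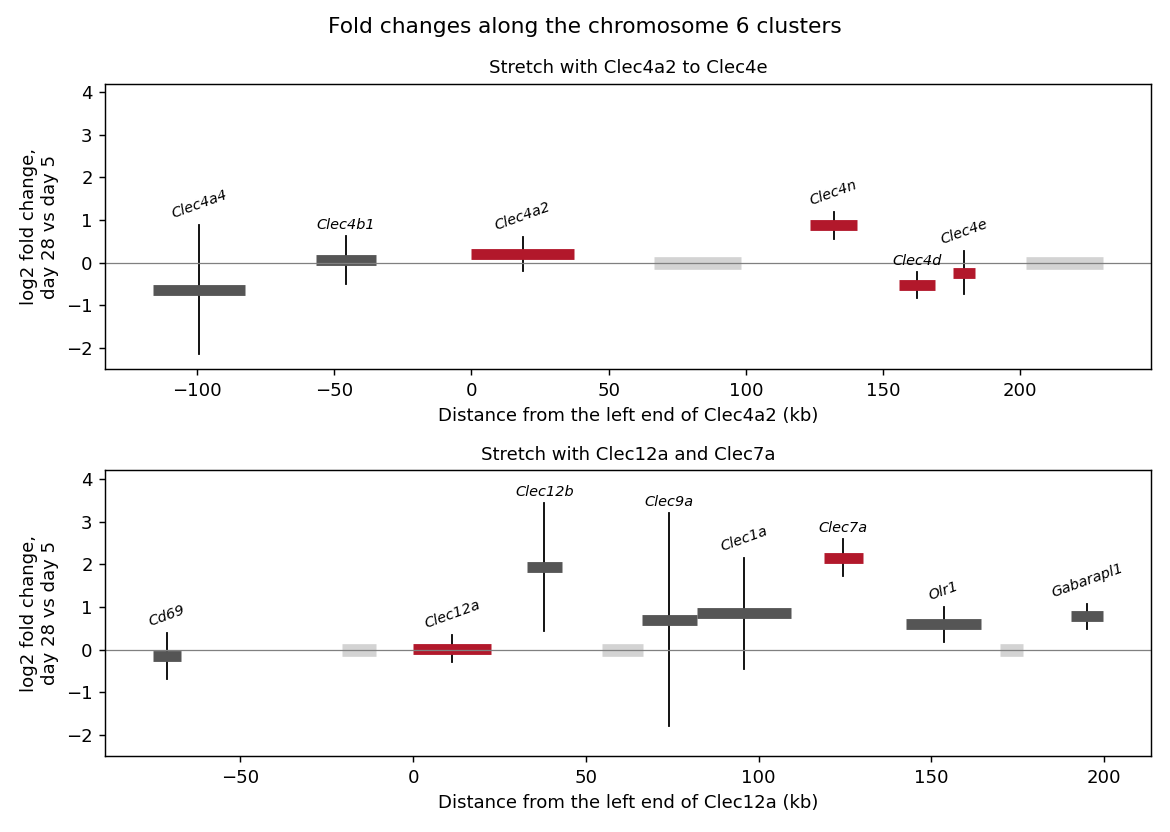
Log2 fold change between days 5 and 28 (vertical axis) of genes along both chromosome 6 clusters, by distance in kb from the left end of Clec4a2 (top) and Clec12a (bottom). Red bars are the receptor genes, dark grey bars other tested genes and vertical lines 95% intervals; light grey bars on the 0 line are genes that were not tested. Clec4n (0.88) and Clec4d (-0.53) lie on opposite sides of 0.

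For the 3 genes whose group means spanned at least 1 unit of log2(FPKM + 1), the genes with the most similar profile over the 7 libraries were sought among the 513 other genes with such a span and a mean of at least 5 FPKM. Likeness was the root mean square difference between log2(FPKM + 1) profiles centred on their means. The added 1 compresses the changes of genes at a low level. For Mgl2 between days 5 and 28, limma gave a log2 fold change of 1.70 with it, and 2.11 with 0.1 instead. Closest to Clec7a were F7, the coagulation factor VII gene (0.22), and Procr, the protein C receptor gene (0.24). F7 was at 32.1, 34.9 and 32.4 FPKM at day 5, 50.9 and 84.2 at day 14, and 131 and 123 at day 28, again with no overlap between time points. Mgl2 was most like Gpr34 (0.16), a receptor for lysophosphatidylserine, and H2-DMb1 (0.21), which encodes a chaperone for loading MHC class II. Clec5a was most like Ptgir, the prostacyclin receptor gene (0.11), and Alcam, a cell adhesion gene (0.13).

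The other genes of the C-type lectin domain superfamily in the table numbered 63, with 42 tested and 38 below a mean of 1 FPKM. Of those tested, 1 was lower at day 14 than at day 5, where 4.78% of all genes tested were called. At day 28, 3 were higher and 6 lower than at day 5, against 15.2% of all genes (7.74% higher and 7.51% lower). The median log2 fold change over the 42 was positive all the same, at 0.23 and 0.36, against 0.03 over all genes in both comparisons. Mrc1, the mannose receptor gene, was the most abundant, at 272 ± 5.97 FPKM (SD, n = 3) at day 5 and 163 ± 18.4 (SD, n = 2) at day 28 (log2 fold change -0.73, SE 0.19, edgeR adjusted p = 0.0347). Klra2, of the Ly49 family, was at 16.3, 14.6 and 12 FPKM at day 5, 6.09 and 4.55 at day 14, and 2.72 and 2.42 at day 28. It was lower in every later library, and its log2 fold change between days 5 and 28 was -2.45 (SE 0.21, edgeR adjusted p = 0.000541). Layn was higher by 1.91 (SE 0.35, edgeR adjusted p = 0.00931).

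Among 31 adaptor and signalling genes, all tested, 1 was higher and 1 lower at day 14 than at day 5. At day 28, 4 were higher and 9 lower than at day 5, with a median log2 fold change of -0.21. Over all genes tested, 4.78% were called at day 14 and 15.2% at day 28. Tyrobp, the DAP12 gene, was the most abundant at 1148 ± 81.8 FPKM (SD, n = 3) at day 5 and 1022 ± 27.7 (SD, n = 2) at day 28, and was not called. Fcer1g, the Fc receptor gamma chain gene, was singled out for its role after its values were seen. Fcer1g averaged 793 FPKM at day 5 and 525 at day 28, with -0.58 as its log2 fold change (SE 0.14, edgeR adjusted p = 0.0264). The NF-kB subunit genes Rela (-0.83, SE 0.18, edgeR adjusted p = 0.0156) and Relb (-0.85, SE 0.19, edgeR adjusted p = 0.0195) fell over the same interval, while Malt1, which acts beside Card9 and Bcl10, rose by 0.83 (SE 0.21, edgeR adjusted p = 0.0277). Of 9 genes of phosphatases and other brakes on this signalling, Cblb was lower at days 14 and 28 than at day 5 and Dok1 higher at day 28 (medians over the 9 of -0.09 and -0.14), with Ptpn6 the most abundant (134 FPKM on average) and not called.

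Of 23 genes that such signalling can induce, 1 was higher and 5 lower at day 14 than at day 5, and 3 were lower and none higher at day 28 than at day 5, with edgeR medians of -0.46 and -0.32 on the log2 scale. The most abundant, Cxcl2, was not called. Il1b was at 1104, 1205 and 1225 FPKM at day 5, 735 and 618 at day 14, and 783 and 728 at day 28. Each later library was below each early one, as for Clec4d, and the log2 fold change between days 5 and 14 was -0.79 (SE 0.13, edgeR adjusted p = 0.0184). Cxcl3, Il6, Nlrp3 and Cxcl1 were also lower at day 14, and Egr1 was higher (189 and 192 FPKM at day 14 against 57.1 to 82.2 at day 5). Among 16 genes of transcription regulators, 2 were higher at day 14 than at day 5, and 3 were higher and 1 lower at day 28, with medians of 0.19 and -0.17 over the 16. Beside these counts and those of the 23 genes, 4.78% of all genes tested were called at day 14 and 15.2% at day 28. Irf4 was at 3.2, 3.66 and 3.07 FPKM at day 5, 8.91 and 4.84 at day 14, and 12.6 and 12.5 at day 28, with no overlap between time points (log2 fold change 1.94 between days 5 and 28, SE 0.21, edgeR adjusted p = 0.00129).

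Markers of other cell types moved with the time points. For the counts of markers called here and in the next paragraphs, the share over all genes tested was 4.78% at day 14 and 15.2% at day 28. The 16 dendritic cell markers summed to 60.8 to 77 FPKM at day 5, 135 and 243 at day 14, and 382 and 377 at day 28. The gene with the highest mean was Itgax, the CD11c gene, which some macrophages also express and which made up most of the sum only in replicate 2 of day 14 and at day 28, with 6.41, 18.3 and 6.55 FPKM at day 5, 34.1 and 170 at day 14, and 294 and 267 at day 28 (log2 fold change 4.77 between days 5 and 28, SE 0.66, edgeR adjusted p = 0.00291). None of these markers was at 0 in all libraries, and 8 had a mean under 1 FPKM. Of the 15 tested, 2 were higher at day 14 and 4 at day 28 than at day 5, and none was lower, with medians of 0.47 and 0.69 on the log2 scale. Their part in the results for Clec7a, Mgl2, Clec4n and Clec5a was not tested.

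The 10 monocyte markers, led by Nr4a1 (184 FPKM on average), summed to 764 to 926 FPKM at day 5, 785 and 538 at day 14, and 478 and 521 at day 28. Between days 5 and 28, 6 were lower, among them Ly6c2 (log2 fold change -2.90, SE 0.66, edgeR adjusted p = 0.0206), and 2 were higher, among them Cx3cr1 (3.01, SE 0.32, edgeR adjusted p = 0.00107), with a median of -1.24 over the 10. The 14 macrophage markers gave 5 lower and none higher over the same days (median -0.43), the largest decrease being that of Fcgr1 (-1.73, SE 0.22, edgeR adjusted p = 0.0021). Their part in the result for Clec4d was not tested.

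The 13 neutrophil markers measured summed to 380 to 409 FPKM at day 5, 634 and 632 at day 14, and 306 and 167 at day 28, led by S100a9 (183 FPKM on average), with Elane at 0 in all libraries. Of the 8 tested, 1 was lower at day 14 and 3 at day 28 than at day 5. Medians over the 8 were 0.81 and -0.71 on the log2 scale. The 8 Schwann cell markers summed to 153 to 294 FPKM, most of it Pmp22, and 6 of them had a mean under 1 FPKM. Of the 2 tested, 1 was higher and 1, Pmp22, lower at day 28 than at day 5. The 8 fibroblast markers, led by Col1a1, summed to 226 FPKM in replicate 1 of day 14 and to 28.9 to 82.2 in the other libraries, with 1 of 8 called, as higher at day 14. That library was also the highest for Clec10a and Clec12a, and for the summed neutrophil (634 FPKM), erythroid (155), mast cell (42.1), T and NK cell (15.7), B cell (10.8) and eosinophil (5.93) markers. The part of any of these cells in the values of Clec10a and Clec12a was not tested. Per the study's methods, the sort left out cells carrying Thy1.2 as fibroblasts, along with cells carrying markers of granulocytes, eosinophils, B cells, T cells and red cells. The erythroid markers (7 measured, led by a beta globin gene, Beta-s) summed to 92.8 to 155 FPKM in the day 5 libraries and replicate 1 of day 14, and to 9.65 to 25.7 in the other 3, with 2 of 4 tested lower at day 28 than at day 5.

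The remaining lists were low. The 8 mast cell markers summed to 10.7 to 42.1 FPKM, most of it Hdc, with Fcer1a and Mcpt8 at 0 throughout. The 7 endothelial markers, led by Kdr, summed to 6.12 to 27.6 FPKM, the 5 B cell markers, led by Cd79b, to 4.42 to 10.8, and the 10 T and NK cell markers, led by Cd4, to 2.89 to 15.7. The 8 eosinophil markers, led by Ccr3, summed to 1.79 to 5.93 FPKM, with Prg3 at 0 throughout. Few of these were tested: compared with day 5, 1 of 2 mast cell and 1 of 3 T and NK cell markers were higher at day 14, and 1 of 2 eosinophil, 1 of 3 T and NK cell and 2 of 6 endothelial markers were higher at day 28, where 2 endothelial markers were lower. The 1 B cell marker tested was not called in any comparison.

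**Figure D5:**
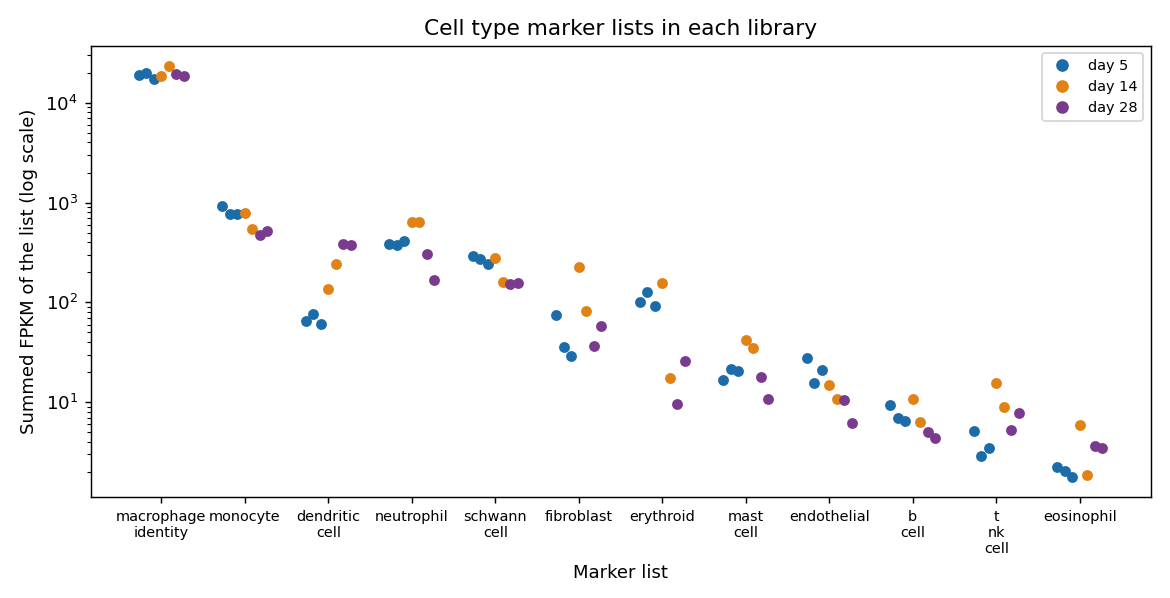
Summed FPKM of each cell type marker list (vertical axis, log scale) in each library, coloured by day. The dendritic cell list lies at 60.8 to 77 FPKM at day 5 and at 377 and 382 at day 28. The macrophage list, most of it Lyz2, lies at 17274 FPKM or more throughout.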

How the data were processed

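Per the labels, and the submitters' processing notes, the authors used cutadapt 1.8 for trimming, TopHat2 2.0.13 for mapping (mm10) and Cuffdiff 2.2.1 for quantification of genes from single-end reads. The deposited table gives, for each of 23361 genes and 7 libraries, estimated counts of fragments (expected counts, of which 1.01% were not whole), a deposited signal of those fragments scaled between libraries by the authors, and the authors' FPKM. No value of the 9 genes had a failed status. After rounding, expected counts went through edgeR 4.0.16 (R 4.3.3), using TMM normalization, the filterByExpr filter (12858 genes kept), the quasi-likelihood test with all 7 libraries in 1 fit, and Benjamini-Hochberg adjustment over all genes tested, called under 0.05. Standard errors and 95% intervals are approximations calculated from F statistics. The fits were tested on simulated data, with large changes between days 5 and 14 only. FPKM, as deposited by the authors, were used for levels, shares, sums and profiles.

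From each gene list, genes called in a comparison were eligible to be named, at most the 6 with the largest change per list and comparison, with the most abundant gene; similar profiles were sought among genes with a mean of at least 5 FPKM whose group means spanned at least 1 unit of log2(FPKM + 1). The 9 genes and the lists were chosen with earlier results of these data known. Spi1 and Hbb-bs were measured under older symbols. Alternatives were DESeq2 1.42.0, RLE and cuffdiff scaling, no filter, limma 3.58.1 on log2 FPKM with a pseudocount of 1 or 0.1, fits on 2 time points, the replicate number as a block, and leaving out each library. DESeq2 fitted 17299 genes, like the edgeR fit with no filter, but by default also filters on mean counts before adjustment. It thus differed from the main fit in both the tool and the filter. Its shares of genes called are over all 17299 genes fitted.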

Additional observations from a re-analysis of the deposited data

How the results depend on the processing

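The calls depended on which libraries were included more than on scaling. Between days 5 and 14, 4 of the 9 genes were called, and 3 to 6 with DESeq2, RLE or cuffdiff scaling, no filter, limma or 2 time points only, while the share of all genes called went from 1.96% (limma, 3 called) to 7.57% (DESeq2) and 8.26% (no filter), each with 6 called. Leaving out each library in turn gave 0 to 7 between days 5 and 14 (0.407% to 13% of all genes), 0 to 2 between days 14 and 28 (0% to 4.7%) and 3 to 6 between days 5 and 28 (3.4% to 20.6%); where 1 library was left in a group, it was assumed to vary like the others. Between days 14 and 28, where none of the 9 genes was called, DESeq2 and the fit without a filter each called 1 (Clec7a). Both fitted 17299 genes and called 1.86% and 2.25% of them. Between days 5 and 28 the calls of Clec4n, Clec7a and Mgl2 held under all 16 alternatives.

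Days 5, 14 and 28 share replicate numbers. Over 7556 tested genes with a mean of at least 5 FPKM, deviations of same-numbered libraries correlated at 0.402 and 0.0472 between days 5 and 14. The values were -0.146 between days 14 and 28, and -0.0424 and 0.0438 between days 5 and 28. Over 7613 genes, those not tested included, they were 0.175 and 0.0449, -0.0538, and 0.0842 and 0.0249. The first value of each pair is that of replicate 1. With 2 libraries each at days 14 and 28, the deviations at each of these days are equal and opposite. Both numbers therefore give the same value between these days. This check cannot decide whether the numbers pair the samples. With the replicate block, 0 genes of the 9 were called between days 5 and 14 (6 of all genes, against 614), 0 between days 14 and 28, and 3 between days 5 and 28 (735 of all, against 1960). Fold changes of the lost calls in the block were 0.87 for Clec4n, 1.20 for Clec7a, 1.90 for Mgl2 and -0.70 for Clec4d between days 5 and 14 (0.91, 1.22, 1.64 and -0.64 without it), and 1.21 for Clec5a and -0.60 for Clec4d between days 5 and 28 (1.25 and -0.53). With the day 28 numbers swapped in the block, a pairing chosen after seeing the data, the counts were 3, 1 and 5 (357, 63 and 1579 of all).

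Fold changes of genes that were not called turned sign in some settings. Clec4a2 (days 5 to 14) was -0.03 in both blocks and Clec10a -0.02 with limma at both pseudocounts; Clec12a (days 5 to 28) was -0.00 in the block. Leaving out single libraries gave ranges of -0.02 to 0.16 for Clec4a2, -0.69 to 0.67 for Clec10a and -0.12 to 0.29 for Clec12a (days 5 to 14); -0.20 to 0.37 for Clec4a2, -0.03 to 0.23 for Clec4d, -0.24 to 0.14 for Clec4n (0.04 without replicate 2 of day 14), -1.25 to 0.11 for Clec10a and -0.27 to 0.14 for Clec12a (days 14 to 28); and -0.12 to 0.45 for Clec4a2, -0.53 to 0.02 for Clec4e and -0.07 to 0.10 for Clec12a (days 5 to 28). The cause was not tested.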
